A study of Homo sapiens with 3 samples.

Results

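The human nuclear receptor family was examined for accessible chromatin in hCMEC/D3 cells, which derive from the endothelium of human brain microvessels and were immortalized. The family was given as 46 gene symbols, and all 46 matched a protein-coding gene of the RefSeq table (assembly GRCh38.p14), which holds 20037 protein-coding genes on the chromosomes used. The single sample used was ATAC replicate 2, from confluent cells at passage 4 to 6 on collagen-coated plastic in an endothelial medium, with no treatment or genetic change in the labels beyond the immortalization of the line. ATAC-seq cuts and tags open DNA with the Tn5 transposase, and a peak is a region where the authors' caller found more tags than in its surroundings. With 1 library of 1 cell line there is no second group and no replicate, so no test was made and every value describes this library.

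Nuclear receptors are transcription factors with a zinc finger DNA-binding domain and a pocket for small lipophilic ligands. Steroid receptors mostly bind DNA as homodimers, many of the others pair with a retinoid X receptor (RXR), and the orphan receptors have no established hormone. In endothelium, members of the family are known for the control of vascular identity (NR2F2), of inflammatory and growth responses (NR4A1 to NR4A3, NR3C1, PPARG) and of transporter genes at the blood-brain barrier.

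The library held 22188172 tags after the caller's filter and 106415 broad peaks. The lowest pileup was 8.0 tags, so weaker accessibility would go unseen and a missing peak does not show closed chromatin. Where the surroundings hold more tags, a peak needs more than this lowest value to be called. Pileup is the authors' mean tag coverage of a peak, given here in tags, and fold is that coverage over a local background estimated from the same library. Of the markers of the labelled cell type, 10 of 10 endothelial genes had a peak at an end of the gene, beside 72.8% of protein-coding genes. The same was found for 3 of 5 mural, 1 of 4 astrocyte, 3 of 4 neuronal, 1 of 3 microglial and 2 of 3 epithelial markers, so a peak at a gene end does not by itself mark a cell type here.

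A gene end means 1 kb on each side of either end of the annotated gene, and a peak sharing at least 1 bp with it was counted. At least 1 such peak was found for 34 of the 46 nuclear receptor genes (73.9%, 95% Wilson interval 59.7% to 84.4% for counting alone), beside 72.8% of all protein-coding genes. The shares lay close together in the list as deposited but not after filtering, where a minimum −log10 q of 5 left 23 of 46 members (50%) beside 66.7% of protein-coding genes. With as many peaks kept by highest pileup as pass a fold of 4, they were 56.5% beside 65.6%. The order of the shares changed with the setting. End windows of 500 bp gave 65.2% beside 69.2%, and windows of 2500 bp gave 87.0% beside 79.2%. An overlap of at least 200 bp gave 71.7% beside 71.5%. Leaving out end peaks at an end of another protein-coding gene gave 30 of 46 members (65.2%) beside 55.5%. A peak inside the gene or at an end was found for 43 members, beside 83.7% of protein-coding genes, and the 3 without were NR0B2, NR1I3 and NR2E3. Within 10 kb of the gene all 46 had a peak, beside 89.8%. The members held 344 distinct peaks, or 347 when each of 3 peaks shared by THRA and NR1D1, neighbours with overlapping extents, is counted for both. Of the 347, 46 lay at a gene end, 233 elsewhere inside the gene and 68 in the 10 kb outside.

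By subfamily, the end peak was present in 3 of 3 NR4 genes, 1 of 1 NR6 gene, 15 of 18 NR1 genes and 9 of 12 NR2 genes. It was present in 4 of 8 NR3 genes, 1 of 2 NR5 genes and 1 of 2 NR0 genes. The share of protein-coding genes beside each is 72.8%. With groups of 1 to 18 genes, no subfamily was tested against it or ranked. The 12 members without one were NR0B2, RARB, RORA, NR1I3, HNF4A, RXRG, NR2E3, ESRRB, ESRRG, NR3C1, PGR and NR5A2. The pileup of the highest end peak had a median of 37.1 tags over the 34 members that had one and ran from 9.06 at PPARG to 78.7 at NR1D2, beside a median of 45.7 over the 14595 protein-coding genes that had one. The plot of pileup by gene shows that high and low values occurred within the same subfamily.

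**Figure D1:**
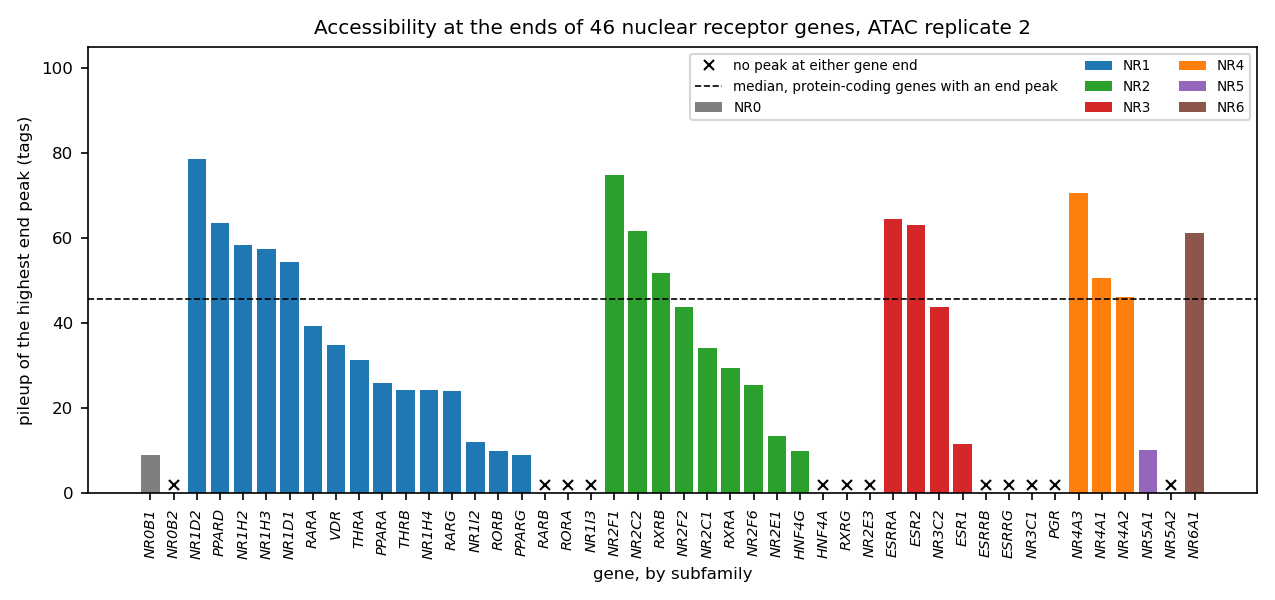
Each bar is the pileup (tags) of the highest peak at either end of a nuclear receptor gene in ATAC replicate 2, coloured by subfamily, and a cross marks the 12 genes with no end peak. The dashed line is the median of 45.7 tags over protein-coding genes with an end peak. NR1D2, NR2F1 and NR4A3 are the 3 highest bars, at 78.7, 74.9 and 70.6 tags.

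The table of gene starts used for sequences gives a strand and 96 annotated starts for 41 of the members. NR0B2, NR4A2, HNF4G, VDR and NR2F6 were not matched. On the start side of the gene, 26 of 41 members had a peak, beside 71.2% of protein-coding genes, and at the opposite end 10 of 41 had one, beside 19.1%. Of the 10 peaks at an opposite end, 4 also lay at an end of another protein-coding gene: POLD1 for NR1H2, MADD for NR1H3, COL11A2 for RXRB, and PRDX5 and TRMT112 for ESRRA. On the start side, the peak was shared with NKIRAS1 for NR1D2, ACP2 for NR1H3, SLC39A7 for RXRB and CATSPERZ for ESRRA. An end peak of these genes cannot be assigned to the receptor alone.

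An annotated start lay inside a peak for 26 of 41 members, beside 68.7% of protein-coding genes with a listed start. Counted by start, it was 41 of 96, beside 62.5% of the 22199 starts of protein-coding genes. All listed starts lay in a peak for 14 members, some for 12 and none for 15. This split follows the number of listed starts, because a gene with a single start cannot have some. A single start was listed for 10 of the 14 and 7 of the 15. No share of protein-coding genes is given for the split between all and some. The 14 were THRA, RARG, PPARA, PPARD, NR1D1, NR1D2, NR1H2, RXRB, NR2C1, NR2C2, ESRRA, NR3C2, NR4A3 and NR6A1. The 15 were NR0B1, PPARG, RORA, NR1H4, NR1I3, HNF4A, RXRA, RXRG, NR2E1, NR2E3, NR2F2, ESR1, ESRRB, PGR and NR5A1. When only peaks with a fold of at least 4 were kept, an end peak remained for 13 of 46 members (28.3%), beside 56.0% of protein-coding genes, and a start in a peak for 13 of 41, beside 53.7%.

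The sequence just before each start was described by its CpG dinucleotides. Starts of members inside a peak had a median of 20 CpG in the preceding 250 bases (range 4 to 45) and a median G+C share of 66.8%. Starts outside had a median of 5 CpG (range 0 to 59) and 51.6% G+C, so the ranges overlapped. Over all protein-coding genes the medians were 22 inside and 4 outside a peak. Of the 30 member starts with 20 or more CpG, 22 lay in a peak, beside 87.7% of such starts of protein-coding genes. Of the 42 with fewer than 10, 6 did, beside 22.4%. Windows of neighbouring starts of 1 gene share bases, so these counts are not independent.

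To show this range, 6 windows of 250 bases before a start are given 5′ to 3′ on the transcribed strand, from RefSeq on GRCh38.p14, with each CpG in capitals. NR4A3, NR4A1 and NR2F1 were set by the rule for printed starts, while the others were picked after their values were seen, for the contrast within NR3C1 and for the RXRA start of highest CpG count. The windows of NR4A3, with 33 CpG, of NR4A1, with 4, of NR2F1, with 8, and of NR3C1 start 6, with 42, end at a start inside a peak. NR3C1 start 1, with 0 CpG, was 21696 bp from the nearest peak, and RXRA start 1, with 59, was 308 bp from one. Starts are numbered in the direction of transcription.
NR4A3 start 1, chr9:99821635-99821884, plus strand: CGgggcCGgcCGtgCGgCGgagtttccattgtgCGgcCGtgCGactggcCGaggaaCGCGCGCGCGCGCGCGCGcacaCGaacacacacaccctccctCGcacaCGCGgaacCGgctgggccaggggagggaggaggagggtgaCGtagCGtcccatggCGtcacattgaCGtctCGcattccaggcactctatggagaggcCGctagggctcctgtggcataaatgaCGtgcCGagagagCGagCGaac
NR4A1 start 1, chr12:52022582-52022831, plus strand: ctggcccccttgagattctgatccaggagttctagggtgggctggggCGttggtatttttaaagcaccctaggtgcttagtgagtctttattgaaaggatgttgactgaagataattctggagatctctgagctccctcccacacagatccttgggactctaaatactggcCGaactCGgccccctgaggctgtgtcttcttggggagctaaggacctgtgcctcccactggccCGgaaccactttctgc
NR2F1 start 1, chr5:93582972-93583221, plus strand: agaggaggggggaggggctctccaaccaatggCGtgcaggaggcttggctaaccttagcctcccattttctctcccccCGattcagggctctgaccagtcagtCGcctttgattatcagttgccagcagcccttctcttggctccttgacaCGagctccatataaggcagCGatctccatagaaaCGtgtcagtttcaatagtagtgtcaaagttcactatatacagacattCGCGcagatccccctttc
NR3C1 start 1, chr5:143435513-143435762, minus strand: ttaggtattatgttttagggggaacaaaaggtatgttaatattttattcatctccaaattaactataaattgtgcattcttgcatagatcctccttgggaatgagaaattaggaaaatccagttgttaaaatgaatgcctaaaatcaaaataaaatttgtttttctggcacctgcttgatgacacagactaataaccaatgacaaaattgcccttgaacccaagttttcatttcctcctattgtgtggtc
NR3C1 start 6, chr5:143403687-143403936, minus strand: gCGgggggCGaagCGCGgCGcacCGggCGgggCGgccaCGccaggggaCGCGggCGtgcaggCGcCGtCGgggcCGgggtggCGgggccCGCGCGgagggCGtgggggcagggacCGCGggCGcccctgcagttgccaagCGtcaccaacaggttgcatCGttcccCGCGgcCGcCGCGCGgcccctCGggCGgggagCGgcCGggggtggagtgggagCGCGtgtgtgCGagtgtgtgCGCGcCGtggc
RXRA start 1, chr9:134326205-134326454, plus strand: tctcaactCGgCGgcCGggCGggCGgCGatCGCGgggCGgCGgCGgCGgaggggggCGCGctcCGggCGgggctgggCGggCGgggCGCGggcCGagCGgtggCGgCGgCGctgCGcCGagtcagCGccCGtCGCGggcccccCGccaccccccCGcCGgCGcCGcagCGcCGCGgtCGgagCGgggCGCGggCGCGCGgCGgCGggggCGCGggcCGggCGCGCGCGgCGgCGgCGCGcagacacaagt
The windows of NR4A3, NR2F1 and NR3C1 start 6 lay wholly in the peak, while 66 of the 250 bases did for NR4A1, whose peak began just before the start.

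**Figure D2:**
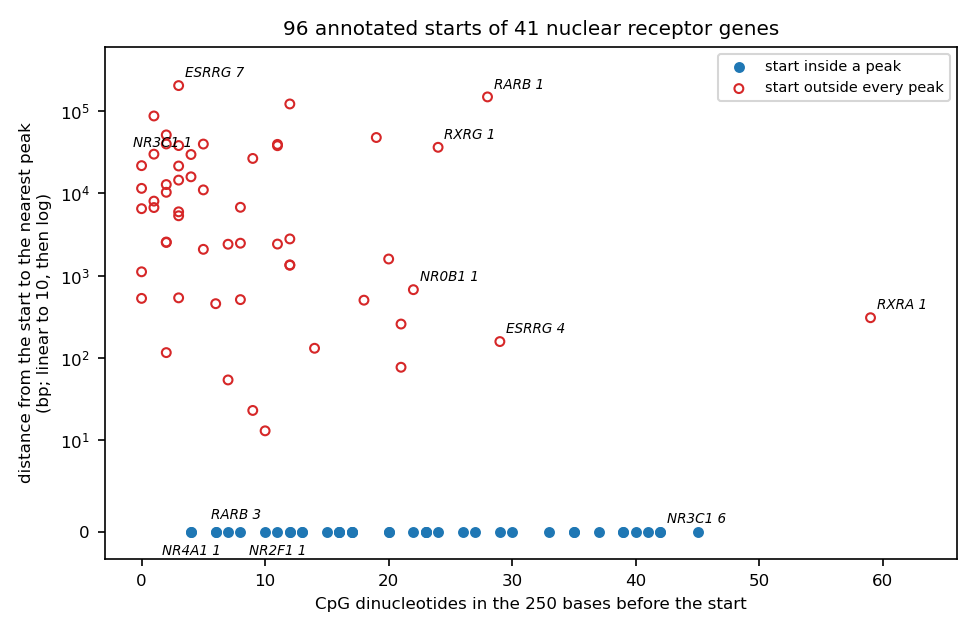
Each point is 1 of 96 annotated starts of 41 nuclear receptor genes, with the CpG count of the 250 bases before it on the x axis and the distance in bp to the nearest ATAC peak on the y axis (linear to 10, then log). Filled points at 0 lie inside a peak and open points outside. RXRA start 1, with 59 CpG, and RARB start 1, with 28, are open points at high CpG.

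A second set of windows is shown for sequence motifs, with matches on either strand in capitals. The core hexamer bound by nuclear receptors was searched as AGGTCA. The monomer element of the NR4A receptors was searched as AAAGGTCA, the AP-1 element as TGANTCA and the cyclic AMP response element as TGACGTCA. The E-box of clock factors was searched as CACGTG and the binding element of ETS factors as CCGGAAGT. Of core promoter motifs, the box bound by Sp1 was searched as GGGCGG, the box bound by NF-Y as CCAAT and the box bound by TBP as TATAAA. AAAGGTCA contains AGGTCA, and all other motifs were counted independently of overlap. NR1D2, ESRRA and NR6A1 had the highest end pileup of the NR1, NR3 and NR6 genes. RARB start 3 was picked after its values were seen, because it was the only start of RARB in a peak.
NR1D2 start 1, chr3:23945036-23945285, plus strand: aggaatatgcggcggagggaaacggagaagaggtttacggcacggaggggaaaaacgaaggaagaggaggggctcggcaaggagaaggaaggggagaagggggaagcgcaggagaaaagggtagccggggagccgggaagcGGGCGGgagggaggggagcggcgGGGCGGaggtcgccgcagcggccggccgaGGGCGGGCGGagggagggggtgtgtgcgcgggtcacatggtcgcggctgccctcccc
ESRRA start 1, chr11:64305274-64305523, plus strand: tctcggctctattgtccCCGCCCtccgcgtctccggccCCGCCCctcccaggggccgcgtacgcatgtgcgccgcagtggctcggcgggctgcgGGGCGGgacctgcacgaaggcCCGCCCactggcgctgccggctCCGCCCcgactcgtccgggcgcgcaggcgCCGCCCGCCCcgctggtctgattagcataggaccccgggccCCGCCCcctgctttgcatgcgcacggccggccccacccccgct
NR6A1 start 1, chr9:124771312-124771561, minus strand: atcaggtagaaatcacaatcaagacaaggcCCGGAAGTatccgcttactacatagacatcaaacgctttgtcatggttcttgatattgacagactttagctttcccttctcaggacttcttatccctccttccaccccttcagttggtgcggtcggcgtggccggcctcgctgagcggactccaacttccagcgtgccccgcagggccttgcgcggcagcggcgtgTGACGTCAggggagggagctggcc
RARB start 3, chr3:25428013-25428262, plus strand: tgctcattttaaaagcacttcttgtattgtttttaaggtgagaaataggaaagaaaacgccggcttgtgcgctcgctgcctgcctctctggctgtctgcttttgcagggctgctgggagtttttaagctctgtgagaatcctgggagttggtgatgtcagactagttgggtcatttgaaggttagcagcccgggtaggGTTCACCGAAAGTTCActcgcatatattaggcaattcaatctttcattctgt
In RARB start 3 the capitals mark a direct repeat, the pentamer GTTCA repeated after any 6 bases, beginning 52 bases before the start. RARB is known as a retinoic acid-inducible gene with a response element of this kind before its second promoter. This motif was added after the other motifs had been searched. It was found before 8 of the 22199 starts of protein-coding genes (0.0360%) and before no other member start. NR6A1 had TGACGTCA at 24 and CCGGAAGT at 220 bases before the start, ESRRA had 8 matches to GGGCGG and NR1D2 had 4. A match is a description of letters and not of a bound site.

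Across the family AGGTCA was present before 15 of 96 starts, in 11 members, beside 10.5% of starts of protein-coding genes. Of these member starts only ESR2 starts 3 and 4 lay in a peak, and among in-peak starts of protein-coding genes the share was 7.92%. Windows of neighbouring starts, as at PPARG starts 2 and 3 and ESR2 starts 3 and 4, share bases, so motif counts are not independent. GGGCGG was present before 47 starts, in 28 members, beside 53.7%, and CCAAT before 33, in 22 members, beside 32.7%. TATAAA was found before 8 (background 9.005%), CACGTG before 6 (7.37%), TGANTCA before 5 (5.36%), AAAGGTCA and CCGGAAGT before 3 each (0.937% and 4.41%) and TGACGTCA before 2 (2.01%). The 3 members with AAAGGTCA were PPARG, NR2E1 and ESRRG, and none of the NR4A genes with a listed start held it in this window.

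Of the steroid receptors, NR3C1, the glucocorticoid receptor, had no peak at either end of its annotated extent and 13 peaks inside. The nearest peak to its upstream end was 21696 bp away. Its starts 3 to 6, from 30.2 to 31.8 kb into the extent, lay in a single peak at chr5:143403360-143405477, 2118 bp wide with 50.4 tags at a fold of 2.89, the widest of all peaks assigned to the family. That peak also lay at an end of the protein-coding entry LOC128966704. Start 7 lay 77 bp outside it, and starts 1 and 2 were both over 21 kb from any peak. The remaining peaks had pileups from 10.8 to 46.2 tags and reached to 156 kb from the start.

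NR3C2, the mineralocorticoid receptor, had its 4 listed starts in 2 peaks. Starts 1 to 3 lay in a peak at chr4:148444146-148445815, 1670 bp wide, with 43.9 tags at a fold of 2.21. Start 4, 2.91 kb further on, lay in a peak at chr4:148441983-148442946 with 80.4 tags at a fold of 4.01. The other 12 peaks inside the gene, from 29.7 to 272 kb, had pileups between 8.87 and 22.8 tags, so the start region stood above the rest of the gene.

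The estrogen receptor genes differed in the same library. ESR2 had a peak over starts 1 and 2 at chr14:64337840-64339315, 1476 bp wide, with 63.1 tags at a fold of 5.51, and another over starts 3 and 4 with 38.6 tags. Its highest peak, 72.7 tags at a fold of 7.04, lay 41.9 kb into the gene. None of the 6 listed starts of ESR1 was in a peak, and the nearest peak was 5337 bp from start 1. Starts 3 to 6 of ESR1 were between 37903 and 39814 bp from a peak. ESR1 nevertheless had 19 peaks, of which the highest, at chr6:152095072-152095625, had 70.0 tags at a fold of 6.84 and lay 439 kb from the first start, towards the far end of the gene. PGR, the progesterone receptor and a known target of estrogen receptors, had a single peak in its 100.19 kb, with 11.2 tags, 1337 bp from the nearest start.

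Among the estrogen-related receptors, which are orphan regulators of energy metabolism, ESRRA had the widest end peak of the family, 2033 bp at chr11:64304341-64306373 with 64.5 tags at a fold of 3.70. ESRRB had 7 peaks inside its 191 kb, the highest with 43.3 tags, and no start within 11 kb of one. ESRRG, of 634 kb, had 2 peaks, and start 3 of its 8 starts lay in one of 256 bp with 13.7 tags.

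For the receptors of retinoic acid, thyroid hormone and vitamin D, an end peak was found in 5 of 6. RARA had 13 peaks in and around its 48.5 kb. Its starts 2 and 3 lay in peaks with 59.8 and 51.4 tags, at chr17:40316660-40318710 and chr17:40341168-40342416, while start 1 was 2419 bp from a peak. RARG had a start peak of 1331 bp with 24.1 tags and an internal peak with 57.5. RARB, at 769 kb the longest member, had 5 peaks, the first of them 599 kb from start 1. The peak at start 3, chr3:25427890-25428394, had 16.0 tags at a fold of 5.03, and start 1, with 28 CpG, was 148491 bp from any peak.

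THRA, encoding a thyroid hormone receptor, had a start peak at chr17:40062758-40063483 with 31.3 tags at a fold of 4.45. THRB had 21 peaks. Start 2 lay in a peak with 23.8 tags, start 1 was 258 bp from it, and the highest internal peak, at chr3:24365063-24365573, had 54.4 tags at a fold of 11.4. VDR, the vitamin D receptor, had a pair of peaks at 1 end with 35.0 and 34.9 tags and 7 more in and around the gene. The highest pileup assigned to any member, 102.3 tags at a fold of 5.70, was a peak at chr17:40098962-40099587 inside NR1D1 and within 10 kb of THRA.

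Of the RXR genes, the common partners of these receptors, RXRB had 2 starts in a peak at chr6:33199976-33201000 with 51.7 tags at a fold of 3.35. RXRA had 24 peaks in and around its 114 kb, 21 of them overlapping the gene, or 18.4 per 100 kb. Neither of its listed starts was covered. Start 1 fell between a peak with 25.3 tags and 1 with 29.5 tags, and start 2 was 54 bp from a peak with 36.3 tags. RXRG had 1 internal peak with 19.4 tags, 36246 bp from its start.

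In the lipid and xenobiotic sensors, PPARD had a start peak with 61.3 tags at a fold of 6.65 at chr6:35342233-35343061, a peak with 63.6 tags at its far end and 9 inside. PPARA had both starts in 1 peak with 26.0 tags. PPARG, the adipogenic and anti-inflammatory member, had the lowest end pileup of the family, 9.06 tags over 1169 bp at chr3:12287879-12289047. Starts 2 and 3 of PPARG lay 13 and 23 bp outside that peak, start 6 lay 5960 bp from a peak, and the highest peak was internal, at chr3:12405671-12406258, with 69.7 tags at a fold of 10.9, 119 kb from start 1. The liver X receptor genes NR1H2 and NR1H3, sensors of oxysterols, had start peaks with 41.5 and 44.7 tags, the latter at a fold of 7.78. The peak at the far end of NR1H2, chr19:50383714-50384952, had 58.5 tags at a fold of 5.71, and that of NR1H3 had 57.6 tags. NR1H3 start 1 was 116 bp outside its peak and starts 2 to 4 were inside peaks.

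NR1H4, the bile acid receptor, had its start 51288 bp from a peak, and its end peak, at the far end (chr12:100564076-100564519, 444 bp), had 24.3 tags at a fold of 7.49. NR1I2, the pregnane X receptor, had start 1 in a peak of 204 bp with 12.1 tags. NR1I3 had no peak in the gene, and the nearest was 10293 bp from its start. HNF4A had 6 internal peaks, the highest with 40.4 tags, and the nearest was 2477 bp from a start. HNF4G, with no listed start, had 1 peak near an end, 481 bp wide at a fold of 3.27.

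The clock receptors were mixed. NR1D1 and NR1D2, the REV-ERB repressors, had all 3 of their starts in peaks. The NR1D2 peak, chr3:23945129-23946726, was 1598 bp wide and had the highest end pileup of the family at 78.7 tags at a fold of 3.93, and the NR1D1 peak, chr17:40100306-40101414, had 54.4 tags at a fold of 3.10. RORA, which acts on the same elements as an activator, had the most peaks of any member, 31 over its 741 kb. Its single listed start lay 602 kb into the extent and 8039 bp from a peak. RORB had 5 peaks, none above 12.1 tags.

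NR2F1 and NR2F2 encode the COUP-TF receptors, of which NR2F2 is known as a determinant of venous identity. NR2F1 start 1 lay in a peak at chr5:93582741-93583301 with 74.9 tags at a fold of 3.79, and further peaks upstream of the gene had 54.4, 37.0, 38.1 and 31.0 tags. At NR2F2, peaks with 44.0, 62.1 and 37.3 tags lay 1.15, 4.51 and 15.2 kb from the start of the extent, and the listed starts, at 6.52 and 7.72 kb, were 1592 and 2792 bp from a peak. NR2F6 had an end peak with 25.4 tags. NR2E1 and NR2E3, known from neural stem cells and retina, differed from these, with an end peak of 13.5 tags and no end peak. The testicular receptor genes NR2C1 and NR2C2 had their starts in peaks. That of NR2C1, chr12:95072750-95073838, had 34.2 tags at a fold of 5.67, and that of NR2C2, chr3:14947031-14948663, was 1633 bp wide with 61.7 tags at a fold of 4.70.

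The NR4A genes encode immediate early orphan receptors, induced within minutes to hours by growth factors and inflammatory stimuli. NR4A3 had a start peak at chr9:99821240-99822263 with 70.6 tags at a fold of 3.37. NR4A1 start 1 lay in a peak at chr12:52022766-52024123 with 50.7 tags at a fold of 2.80, start 2 was 503 bp from a peak, and 5 internal peaks had 25.1 to 66.5 tags. NR4A2 had an end peak at chr2:156331939-156333244 with 46.2 tags at a fold of 3.23. All 3 thus exceeded the median pileup of protein-coding genes, 45.7 tags, NR4A2 narrowly, and all 3 lay below their median fold of 5.02.

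Of the remaining members, NR6A1, the germ cell nuclear factor, had a start peak at chr9:124770986-124771820 with 61.2 tags at a fold of 6.22. NR5A2 had its second start in a peak with 21.6 tags, the first start 1113 bp from a peak, and 14 peaks in all. NR5A1, the steroidogenic factor, had a single peak, chr9:124480586-124480858 (273 bp), with 10.2 tags at a fold of 3.12, 26541 bp from its start. NR0B1 and NR0B2 lack the usual DNA-binding domain and repress other receptors. NR0B1 had 1 peak, chrX:30308264-30308715 (452 bp), with 9.15 tags at a fold of 3.01, 675 bp from its start, and NR0B2 had 3 peaks, all at least 3533 bp outside the gene.

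**Figure D3:**
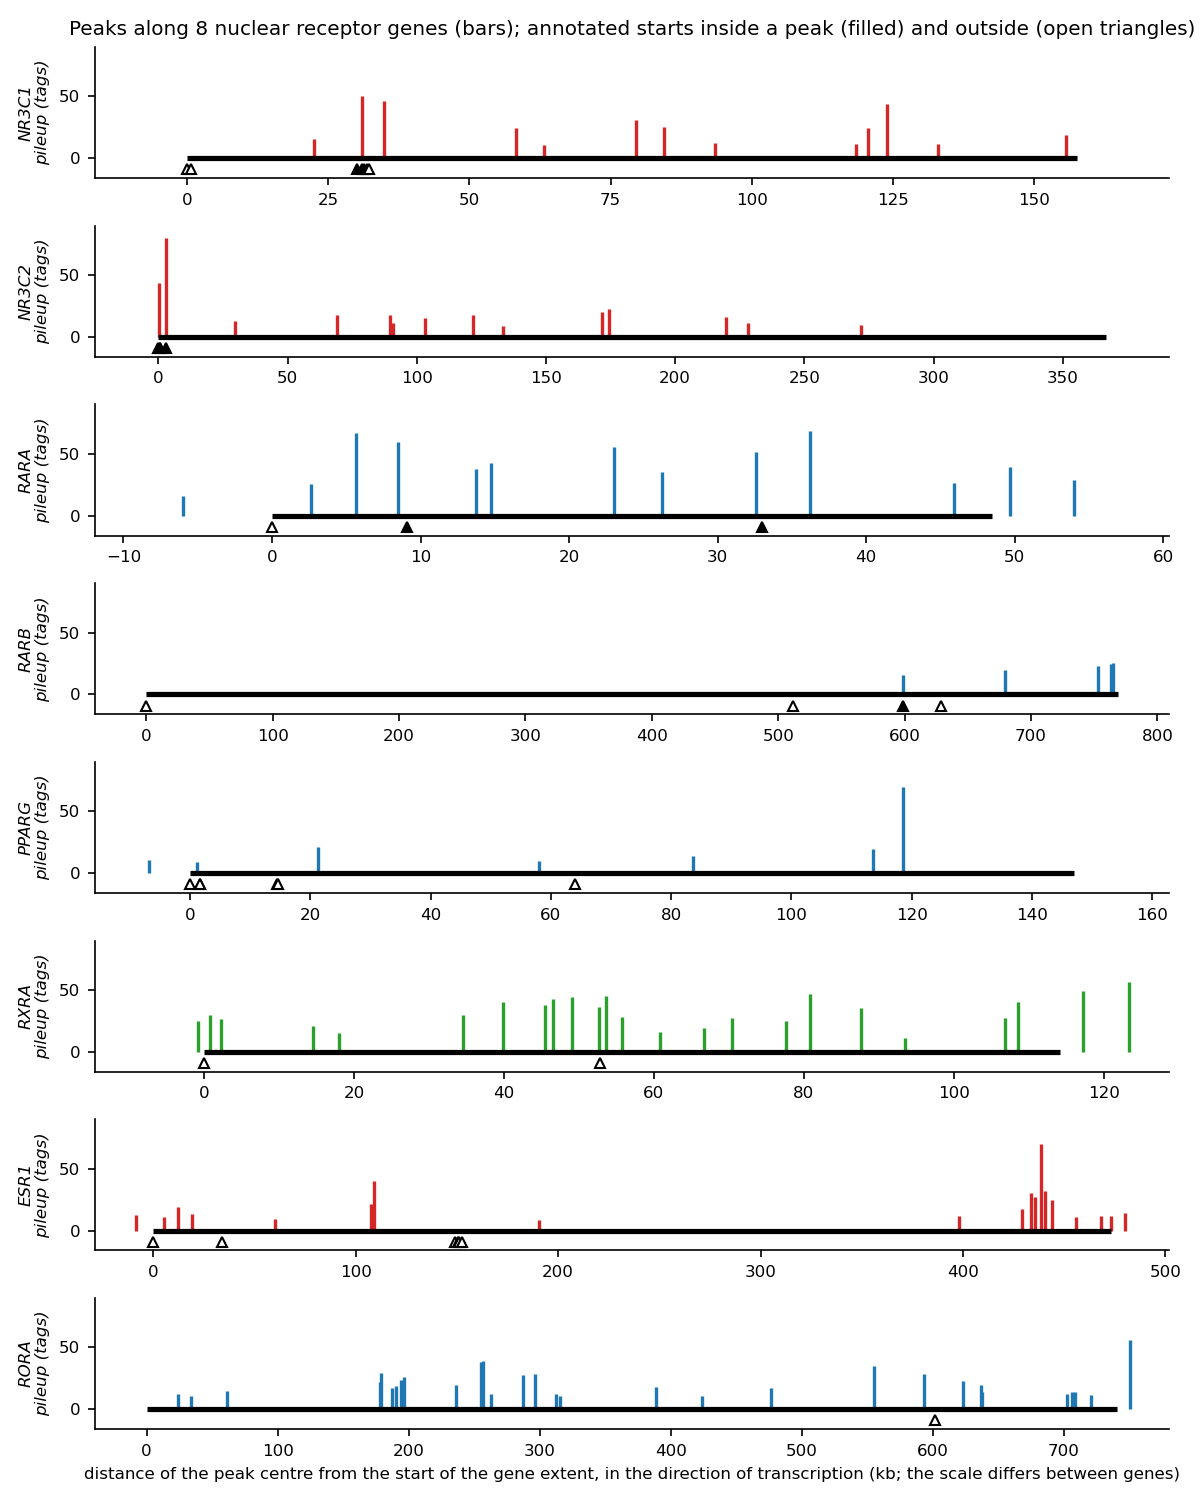
Bars mark the peaks of 8 nuclear receptor genes at their distance from the start of the gene extent (kb, scale differs between genes), with the pileup in tags as height, and the black line is the gene. Triangles are annotated starts, filled inside a peak and open outside. The filled triangles of NR3C1 sit at 30.2 to 31.8 kb and that of RARB at 599 kb, while PPARG, RXRA, ESR1 and RORA have open triangles only.

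Longer members tended to hold more peaks, with medians of 3.5 up to 10 kb, 5.5 up to 30 kb, 6 up to 100 kb, 7 up to 300 kb and 16.5 above. For protein-coding genes the medians in the same classes were 2, 3, 4, 8 and 11. Members had a median length of 50.9 kb, beside 24.1 kb for protein-coding genes, and a median of 5.5 peaks in and within 10 kb of the gene, beside 3. At least 10 peaks were found for 11 of 46 members, beside 10.3% of protein-coding genes, which are shorter. Per 100 kb of gene the medians were closer, 7.48 and 6.76, but these pool genes of unlike length. By length class they were 13.2 for members beside 13.6 up to 10 kb, 15.9 beside 8.58 up to 30 kb and 8.24 beside 5.83 up to 100 kb. In the longer classes they were 3.93 beside 4.49 up to 300 kb and 3.60 beside 2.15 above. Members of over 300 kb ran from 2 peaks at ESRRG to 31 at RORA, beside a median of 11 for protein-coding genes of that length. Those of over 100 to 300 kb ran from 1 to 24, beside a median of 8. Members of similar length therefore differed widely, as between RXRA (114 kb, 24 peaks) and PGR (100.19 kb, 1 peak).

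**Figure D4:**
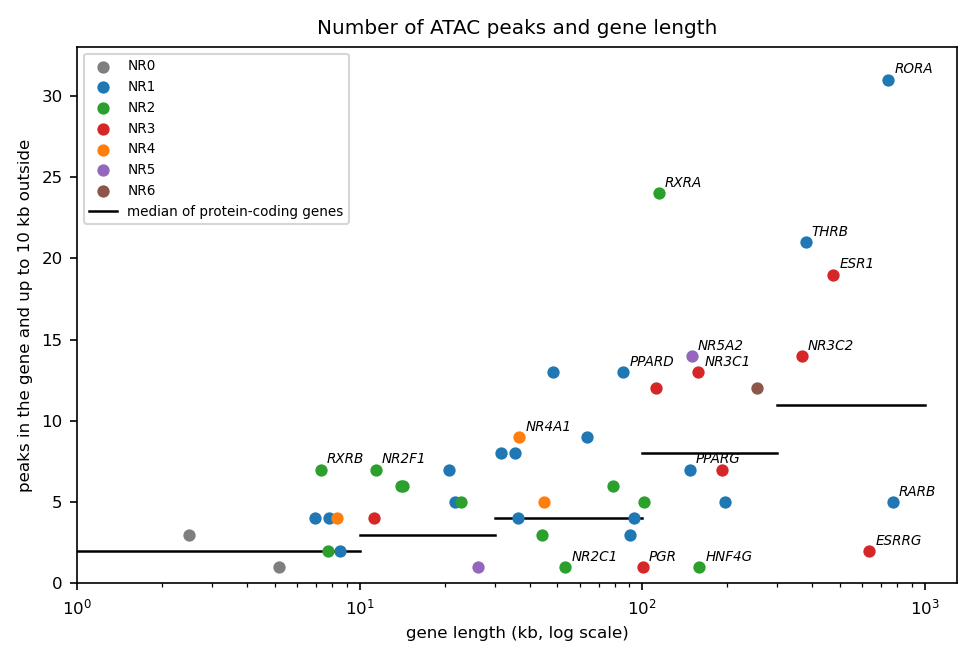
Each point is a nuclear receptor gene, with its length in kb on a log x axis and its number of ATAC peaks in the gene and up to 10 kb outside on the y axis. Black lines are medians of protein-coding genes in 5 length classes. RORA, RXRA and THRB lie far above the lines, at 31, 24 and 21 peaks, and RARB, ESRRG, PGR and HNF4G below, at 5, 2, 1 and 1.

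Fold and pileup ranked the family's end peaks differently. The median fold of the highest end peak was 3.73 over 34 members, beside 5.02 over protein-coding genes. Within classes of pileup 30 of the 34 lay below the median of protein-coding genes. These were 8 of 8 members at 8 to 20 tags, 8 of 10 at 20 to 40, 7 of 8 at 40 to 60 and 7 of 8 from 60. In the lowest class the genome-wide background floor caps the fold. A peak with few tags there had to fall below the class median of 3.87, so that class decides nothing. Among peaks with 40 to 60 tags the members' median fold was 3.16 (range 2.21 to 5.71, 8 members), beside 5.22. The local background implied by the caller's formula had a median of 9.17 tags over the 34 members, beside 7.88 over protein-coding genes with an end peak. The highest values of the members were 19.3 tags at NR3C2, 20.3 at NR4A3, 19.1 at NR2F1 and 19.3 at NR1D2. At the other extreme, PPARG, NR0B1, RORB, NR1I2, HNF4G, ESR1 and NR1H4 had end peaks whose background sat at the genome-wide floor of 2.37 tags. That floor scales inversely with the genome size given to the caller, here its mouse preset, so folds at the floor depend on this setting. The fold medians, the filter at a fold of 4 and the choice of the 5 highest folds mix folds at and above the floor. NR1H4, at the floor, is among those 5.

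**Figure D5:**
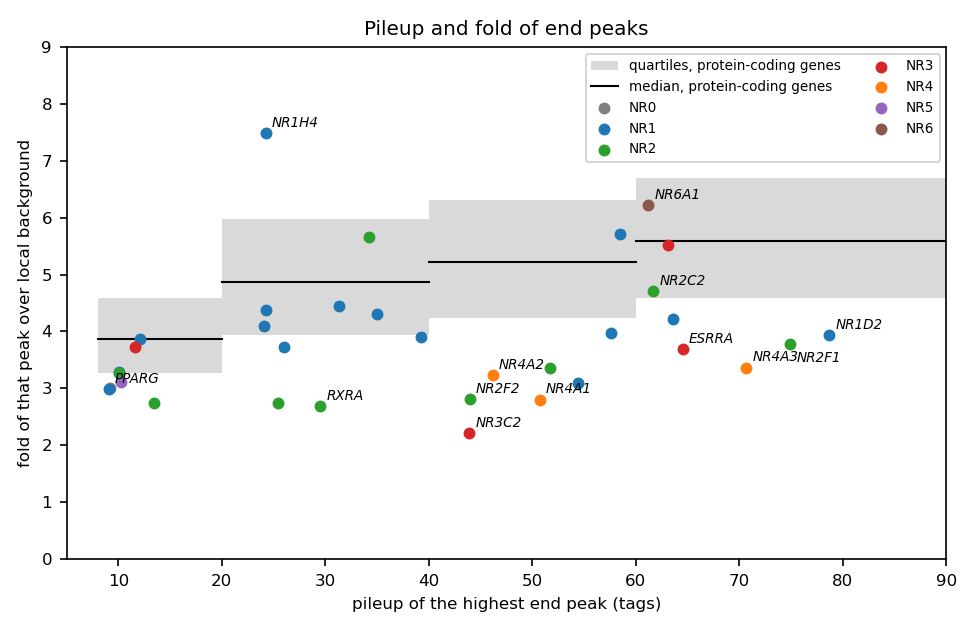
Each point is the highest end peak of a nuclear receptor gene, with its pileup in tags on the x axis and its fold over local background on the y axis, coloured by subfamily. Grey bands and black lines are the quartiles and medians of protein-coding genes in 4 pileup classes. NR3C2, NR4A1, NR2F2 and NR4A3 lie below the grey bands, at folds of 2.21, 2.80, 2.81 and 3.37.

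End peaks were also counted for the coregulators through which nuclear receptors act, for enzymes and carriers of ligands and for known target genes. An end peak was found for 9 of 10 coactivator genes, all but NCOA2, with the highest pileups at CARM1 (74.6 tags), an arginine methyltransferase, and PPARGC1B (67.0). It was found for 6 of 7 corepressor genes, all but TBL1XR1, with the highest at NCOR1 (61.8) and HDAC3 (53.5). Enzymes and carriers of the ligands had one in 8 of 15, led by RDH10 (58.4), which oxidises retinol, and SRD5A1 (56.4), the steroid reductase. Known receptor target genes had one in 19 of 28. The highest were FKBP5 (99.4 tags, fold 2.80) and DUSP1 (95.5 tags, fold 2.83), both known glucocorticoid-induced genes. The background for each list is the 72.8% of protein-coding genes. It was 79.8% for those of over 100 to 300 kb, the class of the median coactivator (141 kb) and corepressor (182 kb) gene. The lists are small, and no difference from these shares was tested. NCOA2 and TBL1XR1 had 14 and 6 peaks in and around the gene, and 1 of 2 listed starts of TBL1XR1 lay in a peak.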

How the data were processed

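The deposited list of ATAC replicate 2 gives, per the file headers, a pileup signal, a fold ratio and p-values and q-values as −log10 for each broad peak, and was written by MACS 2.2.7.1 for the authors, as the file headers state. In broad mode the caller writes means over the peak. Peaks were called on this library alone, in single-end mode with no control file, a shift of -100 bp, an extension of 200 bp and q limits of 0.05 and, for broad regions, 0.1. The caller kept 22188172 of 31532245 tags and used an effective genome size of 1870000000 bp, its mouse preset. The submitters' processing notes name Bowtie2, SAMtools 1.13 and Picard, and the builds GRCh38 and mm10, with no role for either. Of these only GRCh38 is human. On 23 of 24 chromosomes more peaks lay at ends of RefSeq protein-coding genes as deposited than after offsets of 2 to 50 kb, with Y the exception, so GRCh38.p14 positions were used. The implied local background was computed as (pileup + 1) / fold - 1. The background floor follows from the tag total and this genome size, so a larger size would raise the folds of peaks at the floor. At the floor means a fold within 0.01 of the value that the floor gives.

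Peaks were placed with Python 3.11.15 and pandas 2.3.3. Placement was tested on simulated peaks at 200 genes of over 10 kb, of which 200 were recovered. Each gene got a single peak, set with the same definition of gene ends. The test therefore checks the code only, and could not show errors of strand or annotation. The members and lists were chosen with earlier results of these data known. All 46 members are accounted for. More values are given for the highest end pileup of each subfamily, the 5 members with the most peaks, the 5 whose highest end peak was widest, the 5 where it had the highest fold, and members with known endothelial roles. The share of members with an end peak carries a Wilson interval, which covers counting error only, and the other shares of members are given without one. The RNA libraries list transcripts that the reference tables used here do not pair with genes, and were not analysed here. With 1 library no test was made.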

Additional observations from a re-analysis of the deposited data

How the results depend on the processing

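No paired analysis was possible because the ATAC group holds 1 library. Among 44 values under alternative settings, 29 were close to the reported one and 15 were not. For counts close means a ratio of at most 1.5, for shares of protein-coding genes inside their Wilson interval, and for the median end pileup inside 24.3 to 54.4 tags. These limits are unlike in strictness. The interval of the end peak share, 72.2% to 73.5%, is narrow, while a fall from 34 to 23 members still counts as close. The tally therefore does not measure how firm the member counts are. A start counted within 500 bp of a peak, every other alternative for starts, and the count of end peaks at no end of another protein-coding gene were chosen after seeing the data.

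Members with an end peak numbered 34, and ran from 23 (−log10 q of at least 5) to 40 (windows of 2500 bp) except with peaks of at least 4-fold, which left 13. That filter also left 175 of the 344 peaks and 13 of the 26 members with a start in a peak. Keeping as many peaks by highest pileup left 26 members with an end peak, 232 peaks and 22 members with a start in a peak. For all protein-coding genes the end peak share of 72.8% became 69.2% (500 bp windows), 79.2% (2500 bp windows), 71.5% (overlap of 200 bp or more), 71.2% (start side), 66.7% (q filter), 56.0% (fold filter), 65.6% (pileup filter) and 55.5% (unshared ends). Their share with a start in a peak, 68.7%, became 72.2% (within 500 bp), 64.7% (q filter), 53.7% (fold filter) and 64.2% (pileup filter). Fewer peaks give lower shares by construction. A single library at this depth gives no error for any pileup. No peak under 8.0 tags was called, and where the local background was higher a peak needed more tags than that.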

Other observations

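Several peaks of high fold lay near members but at no member's end. A peak at chr9:134449541-134449964, outside RXRA and 123 kb from its first start, had a fold of 12.1 with 56.2 tags. Besides the peaks in THRB and PPARG given above, folds above 10 were found inside NR6A1 (10.9, with 35.7 tags), inside RORA (10.8, with 35.4 tags), both with background at the floor, and near NR0B2 (10.4, with 44.1 tags, inside the gene NUDC). Near NR1I3, a gene with no peak of its own, a peak with 82.8 tags lay at an end of TOMM40L, and near NR2F6 a peak with 75.7 tags lay at an end of OCEL1.

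ESR1, NR5A1, RARA and NR1H4 had an end peak only at the end away from their start, with 11.6, 10.2, 39.3 and 24.3 tags, and that of ESR1 lay inside the neighbouring gene SYNE1. Among the ligand enzymes, CYP19A1, which makes estrogen, had 14 peaks in and around the gene with none of its 7 listed starts in a peak. DIO2, which activates thyroid hormone, had no end peak and both of its listed starts in a peak.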
